A study of Mus musculus with 28 samples.

Results

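Distal H3K27ac regions that pachytene spermatocytes and round spermatids share, and that spermatogonia lacked, were chosen on measured values: the peaks called in each library. Overlapping peaks of 12 H3K27ac libraries were merged into 129187 regions. A region was kept when it was called in all 4 spermatocyte and spermatid libraries and in none of 8 spermatogonial libraries, when every peak in it had the class intron, upstream or intergenic, and when no input peak overlapped it. That left 4323 regions of the 129187, among 97505 distal regions free of input peaks. Presence in the older cells and absence from spermatogonia is therefore what selected the regions, and it is given here as a description with no test.

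The cells came from testes of C57BL/6 mice. The 8 spermatogonial libraries were from postnatal day 7: Thy1+ and c-Kit+ spermatogonia, each from wild type (WT) mice and from Scml2-KO mice (KO), with 2 libraries a group. The 4 others were from adult Scml2-KO mice, 2 of pachytene spermatocytes (PS KO) and 2 of round spermatids (RS KO). All 4 libraries in which the regions are high thus carry the Scml2 knockout, H3K27ac of wild-type PS and RS is not analysed here, and stage and age change together between spermatogonia and the older cells. The labels name both magnetic sorting and sedimentation as isolation methods and do not say which served which cells. The peak tables do not check the deletion of Scml2. The labels do not say whether replicates came from separate mice, so p-values measure only the spread between these libraries.

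H3K27ac, acetylation of lysine 27 of histone H3, marks active promoters and enhancers, and an H3K27ac peak far from a listed start is commonly read as a candidate enhancer or as an unlisted promoter. Pachytene spermatocytes are in the long prophase of the first meiotic division, in which homologous chromosomes pair and recombine while the X and Y are silenced in the sex body. Round spermatids are the haploid cells that follow and that build the acrosome and the flagellum. Pachytene spermatocytes also transcribe long intergenic precursors of piRNAs, small RNAs bound by Piwi proteins, many of them switched on by the transcription factor A-MYB. No map of piRNA loci was used here, so overlap with them was not counted.

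Some of the strongest and widest of the regions hold small RNA genes, and their mature sequences show what the annotation places there. In the RefSeq table of GRCm38.p6, 14 of 1005 miRNA hairpins overlapped 12 of the regions, and 13 of the 14 were among the 30 hairpins named Mir7210 to Mir7243. Against these 13 of 30, 1 of the other 975 hairpins overlapped a region. This name range was singled out after the overlaps were seen, and small RNA levels were not analysed here. The hairpins below lie in regions near Aym1 (Mir7230, chr5:113337590-113337645, minus strand), C2cd4b (Mir7241, chr9:67727717-67727780, and Mir7242, chr9:67729499-67729577, both minus), Dlg5 (Mir7210, chr14:24088877-24088930, plus), Tspan11 (Mir7233, chr6:127788084-127788143, minus) and Grm4 (Mir7214, chr17:27317035-27317095, minus, and Mir7216, chr17:27328385-27328460, plus). Each is written 5′ to 3′ with the seed, bases 2 to 8, in capitals.
mmu-miR-7230-5p: aGACUGCUguuucucugaguggc
mmu-miR-7230-3p: uUGAGUUGagacugucaguaggu
mmu-miR-7241-5p: aCUUGCAUgaguuaauacccacc
mmu-miR-7242-5p: aUUGGGCUugggaggugcuugu
mmu-miR-7242-3p: uGGCAGCUcggcucuacucugg
mmu-miR-7210-5p: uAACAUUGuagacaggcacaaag
mmu-miR-7210-3p: uUAUAUGUaaguaacaauguggcu
mmu-miR-7233-3p: uAUUGUCUgccuuuaggucuac
mmu-miR-7214-3p: cUCAGUCCugaccccuugagcgca
mmu-miR-7216-5p: uGGAGAGCuggcagaggacccaga
mmu-miR-7216-3p: uGGAAUUUggucuuuuccggc
The 24 mature sequences of the 14 hairpins had 24 different seeds, so the hairpins formed no group by shared seed.

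Other strong regions hold the annotated start of a long non-coding RNA (lncRNA) that the peak tables do not name. The RefSeq windows below run from 250 bases before to 50 bases after such a start. They are those of Gm6653 (chr10:88135804-88136103, minus strand, in an intron of Parpbp), Gm10505 (chr17:27324946-27325245, plus, near Grm4), Gm30818 (chr17:22497196-22497495, plus, near Vmn2r111), 4930463O16Rik (chr10:84488043-84488342, plus, near Ckap4) and Gm32144 (chr19:56266868-56267167, minus, near Habp2), all GRCm38.p6. They were chosen after their values were seen, as the 5 lncRNA starts in the regions of highest mean level with one. Capitals mark the letters CNGTTG on either strand, the core that MYB proteins bind. A match is a description of the letters and not a bound site.
Gm6653: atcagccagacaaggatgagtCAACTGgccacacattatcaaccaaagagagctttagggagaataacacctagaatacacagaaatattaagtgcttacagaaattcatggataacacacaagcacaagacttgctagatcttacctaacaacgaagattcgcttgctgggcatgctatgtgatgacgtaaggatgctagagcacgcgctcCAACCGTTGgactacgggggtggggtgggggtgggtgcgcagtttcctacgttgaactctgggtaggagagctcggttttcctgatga
Gm10505: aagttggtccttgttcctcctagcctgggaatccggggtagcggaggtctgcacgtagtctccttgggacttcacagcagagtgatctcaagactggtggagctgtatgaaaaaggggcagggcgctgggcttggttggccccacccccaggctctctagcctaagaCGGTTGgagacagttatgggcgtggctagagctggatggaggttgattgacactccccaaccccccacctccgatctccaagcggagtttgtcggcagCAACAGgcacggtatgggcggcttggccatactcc
Gm30818: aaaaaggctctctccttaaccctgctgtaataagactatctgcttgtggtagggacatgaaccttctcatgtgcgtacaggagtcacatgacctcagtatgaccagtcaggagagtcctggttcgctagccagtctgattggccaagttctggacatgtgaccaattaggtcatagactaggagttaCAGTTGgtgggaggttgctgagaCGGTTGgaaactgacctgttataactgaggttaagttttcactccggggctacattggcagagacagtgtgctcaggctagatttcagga
4930463O16Rik: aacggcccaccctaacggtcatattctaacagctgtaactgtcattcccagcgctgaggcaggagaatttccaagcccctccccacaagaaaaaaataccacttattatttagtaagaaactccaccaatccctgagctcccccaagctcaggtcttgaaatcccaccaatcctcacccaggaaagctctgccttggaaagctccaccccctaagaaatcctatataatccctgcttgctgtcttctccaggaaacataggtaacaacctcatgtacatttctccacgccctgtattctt
Gm32144: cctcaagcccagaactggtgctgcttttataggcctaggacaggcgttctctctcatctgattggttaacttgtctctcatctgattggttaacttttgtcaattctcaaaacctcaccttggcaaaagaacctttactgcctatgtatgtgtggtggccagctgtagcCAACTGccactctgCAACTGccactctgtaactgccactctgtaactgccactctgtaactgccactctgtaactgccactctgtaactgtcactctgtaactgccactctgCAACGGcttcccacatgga
Gm6653 and Gm32144 had 3 matches each, 2 of the 3 overlapping in Gm6653, Gm10505 and Gm30818 had 2 each, and the window of 4930463O16Rik had none.

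The level of a region in a library is the deposited fold enrichment of its highest summit over that library's background. Over the 4323 regions it ran from 3.05 through a median of 6.48 to 39.7 in PS KO replicate 1 and from 3.20 through 5.86 to 53.3 in PS KO replicate 2. In RS KO it ran from 3.13 through 7.04 to 32.9 in replicate 1 and from 3.25 through 6.49 to 33.5 in replicate 2. The 784 distal regions called in all 12 libraries had higher medians, 12.8 and 13.3 in PS KO and 10.6 and 8.66 in RS KO. The 5382 distal regions called in both PS libraries and no other had medians of 4.19 and 4.80, and the 6349 called in both RS libraries and no other had 4.69 and 4.33. The medians of the shared regions thus sat between those of regions kept from spermatogonia onward and of regions called at 1 stage. The rule favours this order, since the classes differ in how many libraries called a peak and calling depends on level. It is a description and was not tested.

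Coverage of the libraries differed and touches the rule. Background height, the files' only indicator of depth, was 0.564 to 1.11 in the spermatogonial libraries, 1.62 and 1.56 in replicate 1 of PS KO and RS KO, and 0.876 and 0.849 in replicate 2. Spermatogonial libraries had 17877 to 36362 peaks and the others 63322 to 73316. The lowest fold enrichment called was 3.31 to 3.84 in spermatogonial libraries. Of the 4323 regions, 3108 (71.9%) exceeded 3.84-fold in all 4 PS and RS libraries and 458 (10.6%) exceeded 7.67-fold, while 1215 (28.1%) were at or below 3.84-fold in at least 1 of them. Promoter peaks of Ldhc, Pgk2, Prm1, Tnp1 and Acrv1, germ cell genes of meiosis and spermatids, were called in all 4 PS and RS libraries and in 0 of 8 spermatogonial ones. Sycp3, of the synaptonemal complex, was called in all 4 and in 5 of 8. The spermatogonial genes checked did not separate the stages in this way. Promoters of Zbtb16, Kit and Dmrt1 were called in all 4 PS and RS libraries and in 4, 6 and 5 of 8 spermatogonial ones. That of Gfra1 was called in 0 of 4 and in 1 of 8, so a missing call in spermatogonia need not mean absence of the mark. Of 24 genes that mark somatic testis cells, 15 had a called promoter in each PS library, 14 of them in both, 12 and 11 in the RS libraries and 6 to 14 in the spermatogonial libraries.

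At the edge of the rule, the weakest regions kept were near Specc1 (3.43, 3.73, 3.52 and 3.25 in PS KO 1, PS KO 2, RS KO 1 and RS KO 2) and in an intron of Mbnl1 (4.19, 3.20, 3.52 and 3.25). Just outside, 630 distal regions were called in all 4 libraries and in exactly 1 spermatogonial library, which was Thy1+ KO replicate 1 for 342 and c-Kit+ KO replicate 1 for 137. The strongest of these, near 2310081J21Rik, reached 24.4, 32.0, 20.7 and 23.3-fold and was called in Thy1+ KO replicate 1 at 4.05-fold. A region upstream of Gapdhs and its neighbours reached 22.5, 14.9, 31.3 and 28.7-fold and was called in c-Kit+ KO replicate 1 at 4.26-fold. A further 5318 lacked 1 of the 4 older libraries, PS KO replicate 2 for 3203 of them. The strongest, near Eif4a2, had 10.3, 16.4 and 12.4-fold in PS KO 1, RS KO 1 and RS KO 2, and the next, near Gm5460, had 8.01, 14.9 and 14.1-fold. Without PS KO replicate 2 the rule would keep 7657 regions, and with peaks of −log10 q of at least 5 in every library 1944.

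Most of the regions lay outside genes. Intergenic regions numbered 1807 (41.8%), intronic ones 1561 (36.1%) and upstream ones, within about 20 kb before a start, 955 (22.1%). PS-only and RS-only distal regions were intronic in 50.8% and 54.3%, and those called in all 12 libraries in 28.3%. The median distance to the nearest listed start was 36510 bp, and 1817 regions (42.0%) lay over 50 kb away. Chromosome X held 62 regions (1.43%), near the 1.52% of all distal regions, and Y held 9. The share on X was 3.75% of PS-only regions, 0.803% of RS-only regions and 1.02% of regions called in all 12 libraries. The regions had a median width of 1403 bp, against 435 bp for PS-only, 449 bp for RS-only and 2302 bp for regions called in all 12 libraries. A spermatogonial peak lay within 1 kb of 366 regions (8.47%) and within 20 kb of 2447 (56.6%). These features were not tested, since width and class depend on the same peak calls that chose the regions.

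The widest region, in the interval near Tspan11 (chr6:127779555-127811753, 32199 bp), had levels of 26.3 and 37.9 in PS KO and 16.8 and 16.2 in RS KO. Next came a region near Grm4, which encodes a glutamate receptor (chr17:27292522-27322024, 29503 bp), with 21.0, 20.8, 18.4 and 16.8 in the same order. A neighbour of it (chr17:27322242-27342325, 20084 bp), which holds the Gm10505 start and Mir7216 printed above, had 31.3, 43.2, 23.9 and 18.4. A region of 23409 bp upstream of Gnal, a G protein alpha subunit, and one of 17906 bp near Dlg5, a scaffold protein, completed the 5 widest. Only 54 regions (1.25%) reached 5 kb, so these are the far end of the range.

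The 10 regions with the highest mean level were all higher in both PS KO libraries than in both RS KO libraries on the deposited scale. On the centred values described below, this held for 28.3% of the shared regions and 36.9% of all tested regions. Upstream of Gnal the levels were 39.7 and 51.7 in PS KO and 28.6 and 26.0 in RS KO. Near Dync1i2, a dynein intermediate chain (chr2:71155921-71160858), they were 37.4, 53.3, 24.6 and 27.6. Upstream of Aym1 (chr5:113333423-113343678), the region of Mir7230, they were 33.9, 47.5, 28.2 and 24.3. PS KO replicate 2 gave the highest value at each of these 10 regions. Upstream of Phactr3, a regulator of protein phosphatase 1 and actin, the levels were 32.4, 49.0, 24.3 and 21.6, and near C2cd4b (chr9:67724971-67736158) they were 31.6, 43.2, 24.3 and 23.3. Near Prkcb, encoding protein kinase C beta (chr7:122233431-122235961), they were 34.3, 49.0, 22.3 and 19.5. Regions near Nmnat3, Mgst3 and Mtpn, at 29.4 to 44.8-fold in PS KO and 21.1 to 25.8-fold in RS KO, and the region near Dlg5 made up the rest. After the centring described below, those near Prkcb (log2 change -0.78, SE 0.22, adjusted p = 0.0321 in limma) and Dlg5 passed the test as lower in RS KO, and the other 8 had changes of -0.42 to -0.61 that did not pass.

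**Figure D1:**
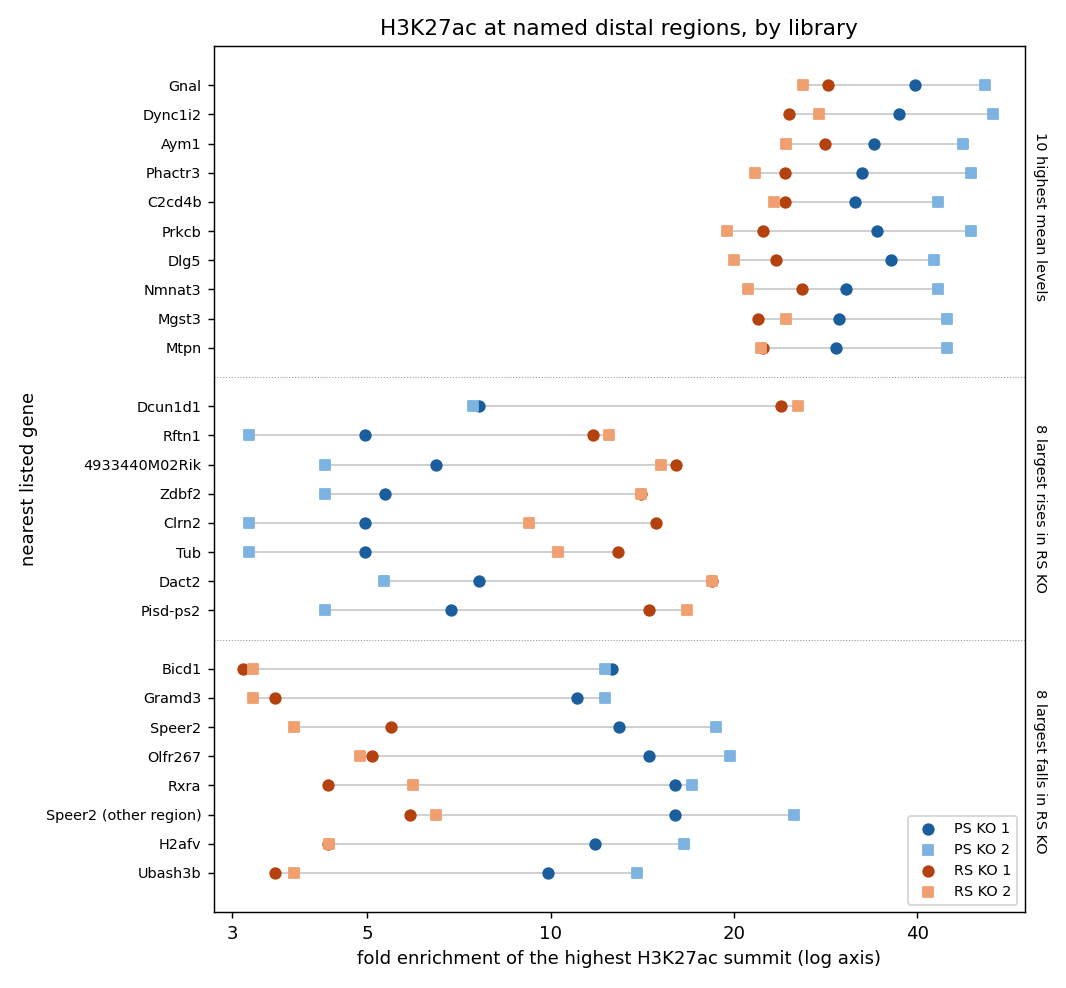
Fold enrichment of the highest H3K27ac summit (log axis) in the 2 PS KO libraries (blue) and 2 RS KO libraries (orange) for 26 named regions, circles for replicate 1 and squares for replicate 2. In the top group every PS point lies to the right of both RS points; the 8 largest rises and falls, chosen by their change, separate the stages by design.

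The rule did not rank spermatids against spermatocytes. It did need a call in all 4 libraries, so no shared region has a value under a library's lowest called level. Those levels were 3.05 and 3.20 in PS KO and 3.13 and 3.25 in RS KO. Values were centred on each library's median over 21329 regions called in all 4 libraries, tested with limma and adjusted by the Benjamini-Hochberg method over all of them. The log2 medians were 3.42 and 3.48 in PS KO and 3.40 and 3.11 in RS KO, so centring lowered RS KO replicate 2 least, also at its lowest called level. How far this limit shapes the counts was not tested. Of the 4323 shared regions, 1253 (29.0%) were higher and 532 (12.3%) lower in RS KO at an adjusted p under 0.05. Over all tested regions 12.4% were higher, 7.79% lower and 20.2% either. The median log2 change was 0.23 in the shared regions and -0.08 over all tested regions. The centred difference was at least 2-fold upward in 837 shared regions and downward in 191, called or not. In such bulk chromatin, fewer cells carrying a mark and less of it per cell cannot be told apart. Promoter peaks of somatic testis cell markers also differed between the stages, as fold enrichments with no test. Their sum over the 24 genes was 123 and 147 in PS KO and 80.6 and 64.4 in RS KO. Clu, a Sertoli cell marker, had 14.5 and 17.6 in PS KO against 4.30 and no call in RS KO. Of the Leydig cell markers, Star had 10.7 and 11.2 against 4.30 and 5.41, and Insl3 had 7.63 and 9.06 against no call in both. The macrophage marker Cd68 had 6.10 and 4.80 against 15.3 and 14.6, and Ptprc, of leukocytes, was not called in PS KO and had 9.00 and 7.03 in RS KO. Promoters of Gata1, Cyp17a1, Hsd3b1, Hsd3b6 and Rhox5 were called in 0 of 12 libraries. The part of such cells in the result was not tested.

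The counts rest on few libraries and on the centring. Leaving out RS KO replicate 1 or RS KO replicate 2 left 0 of 21329 regions at an adjusted p under 0.05 in limma, with 3623 and 3479 at an unadjusted p under 0.05. Leaving out PS KO replicate 1 gave 1643 shared regions higher and 918 lower, and leaving out PS KO replicate 2 gave 1057 and 394. Without centring 1079 were higher and 952 lower, and with centring on promoters called in all 12 libraries 1554 and 305. Those scalings move the median of all tested regions to -0.27 and to 0.09, so directions are relative to the chosen centre. Higher calls were 70.2% of the called shared regions, 53.1% without centring and 83.6% with promoter centring. Of all called regions they were 61.5%, 37.9% and 80.8% in the same order. With peaks of −log10 q of at least 5 they were 73.3% of the called shared regions and 76.6% of all called regions. When regions called in any 2 of the 4 libraries were tested (54301 regions, missing values replaced by the library's lowest), 352 shared regions were higher and 477 lower. Over all 54301 regions 3126 were higher and 3896 lower in that setting. Higher calls were then 42.5% of the called shared regions and 44.5% of all called regions.

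The change varied with the level. The shared regions were put in 4 groups of like size by mean level. The lowest group had mean log2 levels of 1.80 to 2.39, while the lowest fold enrichment called was 3.05 to 3.25 in the PS and RS libraries. A large change cannot show so near that limit in a region called in all 4 libraries. The groups thus differ in what could be called, and the part of this in the pattern was not tested. In the lowest group 129 of 1082 were higher in RS KO and 11 lower, in the second 334 and 82 of 1080, and in the third 443 and 168 of 1080. In the highest group 347 were higher and 271 lower of 1081, with a median log2 change of -0.23. Over all tested regions in the level range of the third group, 873 were higher and 537 lower of 3486, in that of the lowest group 233 and 38 of 2734, in that of the second 669 and 285 of 3251, and from the lowest level of the highest group upward 873 and 801 of 11858. The lowest group thus held 11.9% higher and 1.02% lower calls, beside 8.52% and 1.39% of all tested regions at those levels. The highest group held 32.1% higher and 25.1% lower calls, beside 7.36% and 6.75% of all tested regions from that level upward, promoters included, with no test of the difference. By class, 508 of 1561 intronic regions were higher and 140 lower, 261 and 105 of 955 upstream ones, and 484 and 287 of 1807 intergenic ones. Tested regions overlapping a distal region called in all 12 libraries had 18 higher and 105 lower of 790.

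**Figure D2:**
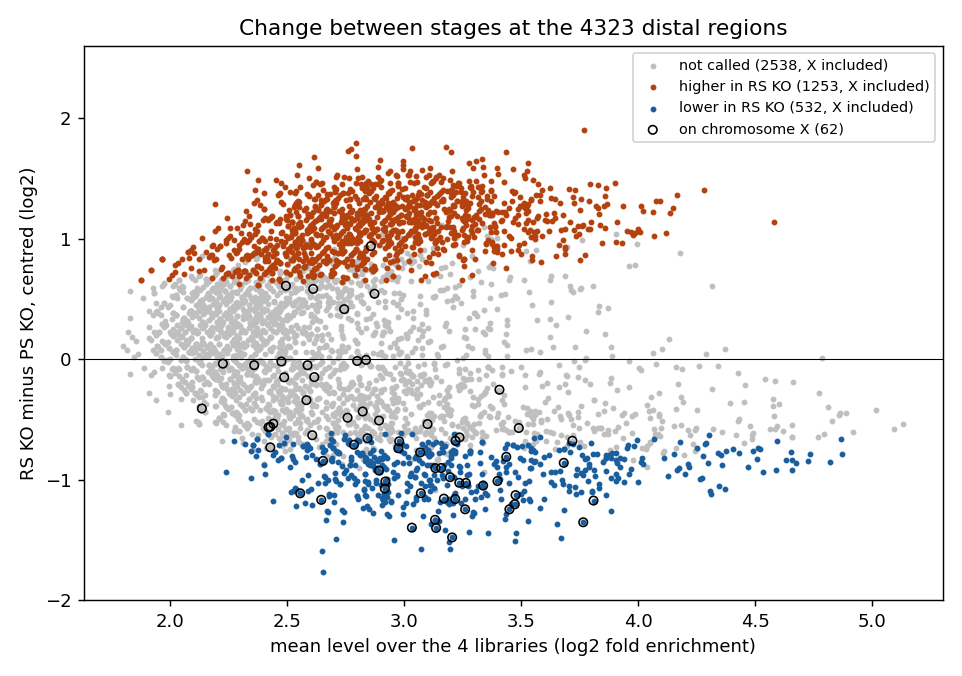
Centred log2 difference RS KO minus PS KO (vertical) against mean log2 fold enrichment (horizontal) for each of the 4323 shared regions, with 1253 called higher in orange, 532 called lower in blue and 62 on chromosome X circled. The circled regions lie mostly below 0, with none called higher, and the strongest regions at the right lie mostly a little below 0.

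The 8 largest rises were at regions of low or middling level in PS KO. Upstream of Dcun1d1, encoding a component of the neddylation machinery (chr3:35936334-35939307), the levels were 7.63 and 7.46 in PS KO and 23.9 and 25.4 in RS KO, a log2 change of 1.90 (SE 0.21, adjusted p = 0.00788). In an intron of Rftn1, encoding the raft protein raftlin (chr17:50115514-50117917), they were 4.96 and 3.20 against 11.7 and 12.4 (1.79, SE 0.26). Near the imprinted gene Zdbf2 (chr1:63238825-63240145) they were 5.34 and 4.27 against 14.1 and 14.1 (1.75, SE 0.22). Regions near 4933440M02Rik, Clrn2, Tub, Dact2 and Pisd-ps2 rose by log2 changes of 1.72 to 1.76. PS KO replicate 2 was the lower PS library at all 8. Its value of 3.20 in the Rftn1 intron and near Clrn2 and Tub is the lowest that library called. The groups did not overlap at any of the 8, which choosing them by their change favours. On centred values both RS KO libraries lay above both PS KO libraries at 47.3% of the shared regions and 26.8% of all tested regions.

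The 8 largest falls had PS KO levels of 9.91 to 25.1 and RS KO levels of 3.13 to 6.49. In an intron of Bicd1, a dynein adaptor (chr6:149468123-149469078), the levels were 12.6 and 12.3 in PS KO and 3.13 and 3.25 in RS KO, a log2 change of -1.77 (SE 0.21, adjusted p = 0.00788). The RS values there are at the lowest level called. Near Rxra, a retinoid X receptor (chr2:27559413-27562189), they were 16 and 17.1 against 4.30 and 5.95 (-1.51, SE 0.26). Upstream of H2afv, encoding an H2A.Z histone (chr11:6454093-6455436), they were 11.8 and 16.5 against 4.30 and 4.33 (-1.50, SE 0.22). A pair of regions 763 and 768 kb from Speer2 fell by 1.51 and 1.58 on the log2 scale. Both are intergenic, and whether reads there come from a single place in the genome was not tested. The others lay near Gramd3, Olfr267 and Ubash3b. Near Gramd3 the RS KO replicate 2 value, 3.25, is also the lowest that library called.

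On chromosome X, 0 of 62 shared regions were higher in RS KO and 32 (51.6%) were lower, with a median log2 change of -0.72. All 467 tested regions on X had 4 higher and 70 lower and a median of -0.28, and the shared regions on autosomes had 1253 higher and 493 lower of 4252. The lower calls on X numbered 45 without centring and 25 with promoter centring, under which 1 was higher. The strongest lay near Gemin8 (chrX:165958724-165961862), with 20.2 and 25.1 in PS KO and 9.39 and 8.11 in RS KO (-1.17, SE 0.20, adjusted p = 0.00871). Near Rnf138rt1 (chrX:163712881-163715576) the levels were 17.2 and 31.5 against 9.00 and 7.03 (-1.35, SE 0.26). On Y, 7 of 9 were lower and 0 higher. Upstream of Zfy2, a Y-linked zinc finger gene (chrY:2182586-2183755), the levels were 14.1 and 23.5 in PS KO and 6.65 and 7.57 in RS KO (-1.16, SE 0.27, adjusted p = 0.0171). Copies of X and Y in each library were not measured here, and acetylation per copy was not tested. Much of Y is multicopy, and reads there may be shared between copies.

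The regions were partly clustered. Joined within 12.5 kb they formed 3724 groups, of which 3309 were lone and 415 held 2 or more, with 1014 regions (23.5%) in the latter and 19 clusters of at least 5. The largest, near Chst1, a sulfotransferase gene (chr2:92530570-92596718), held 15 regions over 66.1 kb. One near Gldn and Cyp19a1 (chr9:54212237-54260035) held 14 over 47.8 kb, one near Soga2 (chr17:66159774-66224569) 13, one near C2cd4b (chr9:67694253-67756089) 12 over 61.8 kb and one near A730056A06Rik and Gm6567 (chr7:73110285-73140445) 10. By nearest gene Chst1 led with 16 regions, then Soga2 with 14, Gldn with 13, C2cd4b with 12 and Cdh13, a cadherin gene with regions in its introns, with 10. Neighbouring regions can be pieces of 1 wider stretch split by a short gap. Near Grm4, for example, 1 region ends at chr17:27322024 and the next starts at chr17:27322242. With peaks within 1000 bp joined the rule kept 3410 regions. Clustering was not compared with that of other distal regions.

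The highest levels differed between these clusters. In the Chst1 cluster they were 11.4 and 16 in PS KO and 12.1 and 13.5 in RS KO, and in the A730056A06Rik cluster 12.6, 9.60, 17.6 and 18.4. In the Gldn cluster they were 32.8, 40.5, 18.8 and 22.2 and in the Soga2 cluster 24.8, 37.3, 17.2 and 16.8. In the C2cd4b cluster the levels ran from 3.81 through a median of 8.39 to 31.6 in PS KO 1 and from 5.33 through 9.86 to 43.2 in PS KO 2. In RS KO 1 they ran from 3.91 through 6.65 to 24.6 and in RS KO 2 from 3.79 through 6.22 to 27. Peaks covered 48.2 and 48.6 kb of it in PS KO and 39.3 and 33.4 kb in RS KO, and no spermatogonial library had a peak inside it. The Chst1 cluster had 2 regions inside it with a spermatogonial peak, and the Gldn, Soga2 and A730056A06Rik clusters 0. Of the 12 regions in the C2cd4b cluster 1 was higher and 1 lower in RS KO. In the Gldn cluster, 3 of 14 were lower and 0 higher, and 13 of 14 had changes below 0. Members of clusters of at least 5 numbered 144, of which 15 were higher and 26 lower, beside 1017 and 377 of the 3309 lone regions.

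**Figure D3:**
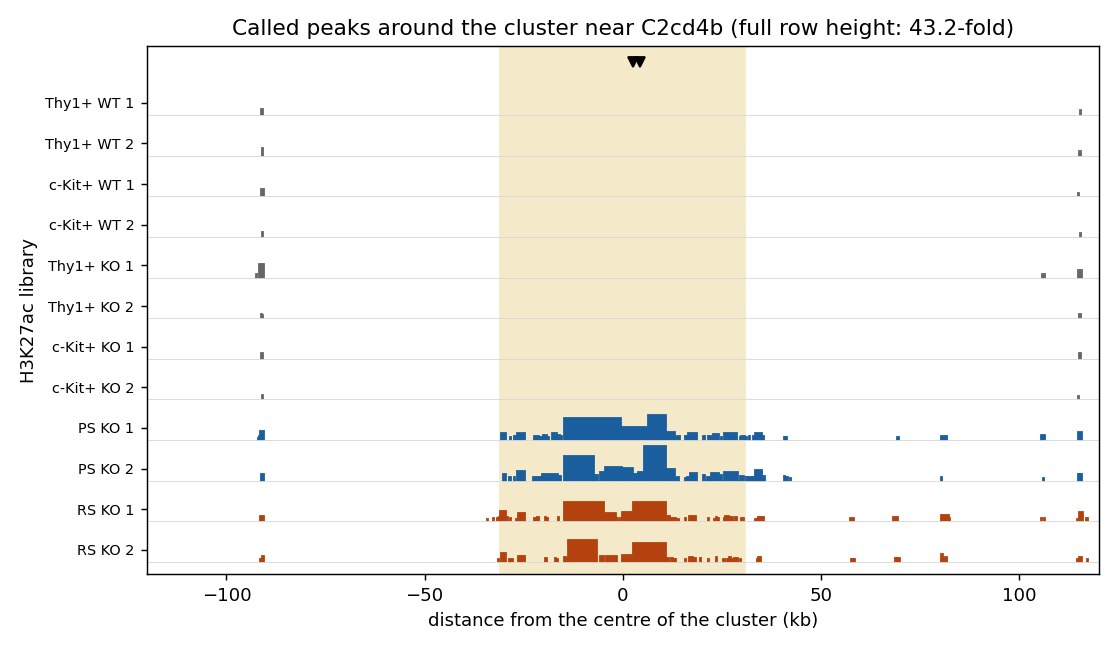
H3K27ac peaks called in each of 12 libraries, at distances up to 120 kb from the centre of the cluster near C2cd4b (shaded, 61.8 kb). Bar height is a peak's fold enrichment, scaled to 43.2-fold, and triangles mark Mir7241 and Mir7242. PS KO and RS KO peaks fill most of the shaded interval and the 8 spermatogonial rows are empty there.

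The regions that hold miRNA hairpins belonged mostly to such clusters. At the region near Dlg5 (chr14:24079741-24097646, holding Mir7210) the levels of 36.2 and 42.7 in PS KO and 23.5 and 20.0 in RS KO gave a log2 change of -0.67 (SE 0.19, adjusted p = 0.0387). At the region near Tspan11 that holds Mir7233 the change was -0.74 (SE 0.22, adjusted p = 0.0438). Near Chst1, the region of Mir7222 (chr2:92592861-92596718) had 11.4 and 16 against 5.87 and 5.41 (-1.07, SE 0.21, adjusted p = 0.0118). The region of Mir7215 near Stox1 also fell, by 0.68 on the log2 scale (adjusted p = 0.0414). The regions of Mir7230, Mir7241 and Mir7242 did not pass the test, at -0.42 (SE 0.21) and -0.44 (SE 0.21), nor did those of Mir7214, Mir7216, Mir7217 and Mir7218 near Grm4, at -0.06 to -0.62. The single hairpin outside the name range, in a region near Fosl2, had 7.24 and 4.80 against 9.39 and 7.57 (0.71, SE 0.24, adjusted p = 0.0686).

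RefSeq start windows fell in 478 of the 4323 regions (11.1%). The share was 26.0% of regions called in all 12 libraries, 1.54% of PS-only and 2.11% of RS-only regions, and went with level, from 4.44% in the lowest of the 4 level groups to 18.3% in the highest. Wider regions hold more windows by construction, and the shared regions are wider than those called at 1 stage. The windows belonged to 494 genes, 398 of them lncRNAs (80.6%), where lncRNAs are 35.3% of the 27025 genes in the table. The lncRNA share was 72.6% of 84 genes in PS-only, 88.2% of 136 in RS-only and 46.4% of 222 in all-library regions. Regions with a peak of promoter class were dropped by the rule, which removes starts that the peak tables list. The excess over 35.3% is therefore partly built in and was not tested. The peak tables named 54 of the 494 and left out 440. Regions with a start window numbered 182 higher and 47 lower in RS KO, and the 3845 without one 1071 and 485.

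At the lncRNA starts printed above, the region of Gm6653 (chr10:88134540-88136911) had 30.1 and 39.5 in PS KO and 21.1 and 24.9 in RS KO. That of Gm30818 (chr17:22496190-22498398) had 26.3, 39.5, 22.7 and 23.8, and neither passed the test (-0.40, SE 0.24, and -0.28, SE 0.24). That of 4930463O16Rik (chr10:84485590-84491188) had 24.8, 33.6, 21.1 and 23.3 and did not pass (-0.19, SE 0.23). That of Gm32144 (chr19:56265572-56268078) had 33.6 and 38.9 against 16 and 19.5 and was lower in RS KO (-0.84, SE 0.23, adjusted p = 0.0326). The region of Gm40182 (chr3:153067866-153070048), with 29.7 and 46.4 against 18.8 and 15.7, was also lower (-0.92, SE 0.23, adjusted p = 0.0230).

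Among the 96 protein-coding starts were testis genes that the tables' nearest gene hides. The region named for Zc3h15, 700 kb from that gene's start (chr2:82942785-82944425), holds the start of Fsip2, of the sperm fibrous sheath, and had 15.3 and 20.8 in PS KO and 18.8 and 14.6 in RS KO. The region named for Tmed11 (chr5:108774364-108775670) holds a start of Rnf212, a crossover factor of meiosis, with 11.8 and 16.5 against 14.1 and 8.11. At both the stages overlapped. The region named for Lbr (chr1:181575912-181577662) holds the start of the dynein gene Dnah14, with 19.8 and 19.7 against 15.6 and 12.4. A region near Spata31d1d (chr13:59744935-59748730) holds the start of 1700014D04Rik, with 17.9 and 8.00 against 27.8 and 26.0 (1.36, SE 0.34, adjusted p = 0.0239). These genes were named after their values were seen.

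Motif letters were counted in the start windows on both strands. The MYB letters CNGTTG were in 47.4% of the 494 windows and in 35.0% of those of all 27025 genes, and in 47.2% against 36.8% when only lncRNA windows were set side by side. Start windows in PS-only regions held them in 45.2% of 84 and in RS-only regions in 33.8% of 136. GTTGCCA, part of the X-box that RFX factors bind, was in 8.30% against 4.46%, and in 7.54% against 4.93% of lncRNA windows; it can overlap the MYB letters by the shared GTTG. CCAAT, bound by NF-Y, was in 40.7% against 37.8%, and in 38.2% against 35.6% of lncRNA windows. GGGCGG, bound by SP factors, was in 12.3% against 35.6%, and in 10.8% against 16.8% of lncRNA windows. TGACG, the core of the sites of CREM and CREB factors, was in 16.2% against 20.7%, but in 16.3% against 15.5% of lncRNA windows, so the direction depends on the windows compared. The full TGACGTCA, which contains it, was in 2.43% against 1.78%, and in 2.51% against 0.976% of lncRNA windows. Median GC content was 49.0% in the windows of shared regions and 52.7% over all genes, 48.8% and 48.3% over lncRNAs. Of the rest, TGANTCA (AP-1) was in 11.3% against 7.91%, the core of GATA factor sites, AGATAA, in 12.1% against 11.3%, CAAGGTCA (SF1) in 1.82% against 1.51% and AGGGGGC (CTCF) in 6.68% against 10.4%. CCGGAAG (ETS) was in 5.87% against 9.08%, CACGTG (E-box) in 4.45% against 7.09% and CACGCG (TCFL5) in 3.85% against 9.23%. Over lncRNA windows alone, in the same order, the shares were 11.1% against 9.48% for AP-1, 12.8% against 14.1% for GATA, 1.51% against 1.86% for SF1 and 6.78% against 6.36% for CTCF. They were 6.53% against 4.04% for ETS, 5.03% against 5.90% for E-box and 3.52% against 4.13% for TCFL5. The direction thus turned for GATA, SF1, CTCF and ETS when only lncRNA windows were compared. These shares carry no test.

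**Figure D4:**
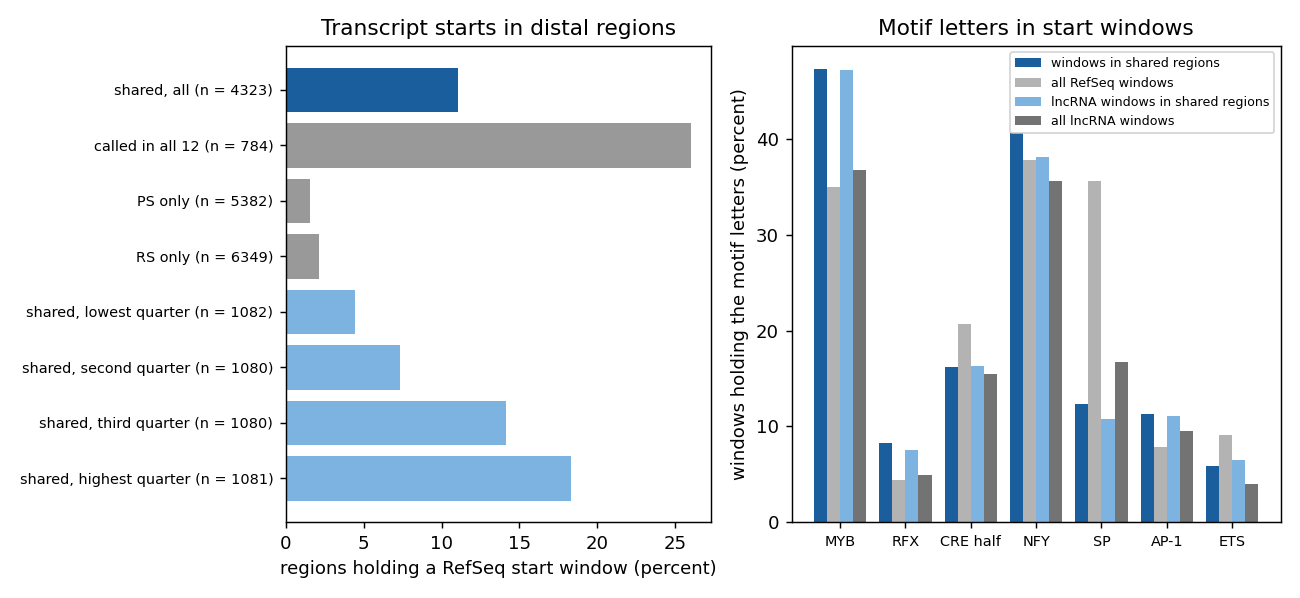
Left, the share of regions that hold a RefSeq start window, for the shared regions, 3 comparison sets and the 4 level groups of the shared regions; it goes from 4.44% to 18.3% over those groups. Right, the share of windows holding the letters of 7 motifs, for windows in shared regions and over RefSeq, for all genes and for lncRNAs, with MYB at 47.4% against 35.0% and SP at 12.3% against 35.6%.

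The tables named 19162 genes, of which 3280 (17.1%) were the nearest gene of a shared region, and counts over gene lists are given over the listed genes that the tables named. Among 41 genes of meiotic prophase 6 were a nearest gene, with 9 regions, of which 6 were higher and 0 lower in RS KO. Their median log2 change was 1.12, against 0.23 over all shared regions and -0.08 over all tested regions. Of all shared regions 29.0% were higher and 12.3% lower. An intronic region of Msh4, which stabilises recombination intermediates (chr3:153863581-153865726), had 13.0 and 5.33 in PS KO and 19.6 and 17.3 in RS KO (1.34, SE 0.36, adjusted p = 0.0309). One near Mnd1, a partner in strand exchange, had 9.91 and 4.27 against 18 and 16.2 (1.59, SE 0.35, adjusted p = 0.0157). Trip13, Tex15 and Mns1 also had regions. At the Msh4 and Mnd1 regions the lower PS value was again in replicate 2.

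Of 25 genes of the acrosome and of sperm-egg fusion, 2 had a region. Both regions near Agfg1, needed to form the acrosome, were higher in RS KO, with 6.48 and 6.40 against 14.5 and 13.5 at the intronic one (1.31, SE 0.19, adjusted p = 0.00788). The region near Zp3r, an acrosomal protein gene, had 6.48 and 6.93 against 5.08 and 3.79 and did not pass. Of 18 genes of spermatid chromatin 3 had one. The intronic region of Rnf8, a ubiquitin ligase with a part in histone removal, was higher (0.80, SE 0.23, adjusted p = 0.0353), and those near Hils1 and Cdyl did not pass.

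Of 46 genes of the flagellum and of sperm energy 13 had a region, 17 regions in all, of which 4 were higher and 4 lower in RS KO. A region near Rsph1, a radial spoke gene (chr17:31248356-31253392), had 24.0 and 33.6 against 17.6 and 11.9 (-0.78, SE 0.22, adjusted p = 0.0357). One upstream of Dnah17, an outer arm dynein gene, had 16 and 18.1 against 9.00 and 7.03 (-0.91, SE 0.19, adjusted p = 0.0137). One near Ropn1, encoding ropporin of the fibrous sheath, had 15.6 and 19.7 against 9.78 and 5.95 (-1.01, SE 0.22, adjusted p = 0.0151).

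Of 22 transcription factor genes of meiosis and spermatids 5 had a region, 8 regions in all with 2 higher and 2 lower. A region upstream of Rfx3 had 27.1 and 42.1 against 19.9 and 17.9 and did not pass (-0.65, SE 0.23, adjusted p = 0.0791). One upstream of Zfp541, a meiotic zinc finger gene (chr7:16060358-16062511), had 28.2 and 35.7 against 19.6 and 14.1 (-0.74, SE 0.20, adjusted p = 0.0314). An intronic region of Rfx4 had 7.24 and 3.73 against 11.7 and 9.74 (1.23, SE 0.30, adjusted p = 0.0217). No region had Mybl1, the gene of A-MYB, as its nearest gene.

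Genes of spermatogonia also had regions among those called only in the older cells. They were 6 of 23 genes with 10 regions, 2 higher and 1 lower. In an intron of Gfra1, a receptor for GDNF on spermatogonial stem cells (chr19:58259934-58261197), the levels were 10.7 and 13.3 in PS KO and 5.08 and 4.33 in RS KO (-1.15, SE 0.20, adjusted p = 0.00884). Upstream of Kit, the receptor that marks differentiating spermatogonia (chr5:75568523-75570295), they were 8.39, 8.00, 8.21 and 6.49, and the groups overlapped. Near Foxo1 they were 6.86 and 3.20 against 12.1 and 9.74 (1.41, SE 0.33, adjusted p = 0.0184). The 3.20, of PS KO replicate 2, is the lowest that library called. Of 23 somatic marker genes 2 had a region, near Nr5a1 and Cyp17a1, and neither passed. Of 14 ubiquitin and proteolysis genes of spermatids 3 had one, Psma8, Spsb1 and Usp2, with 1 of 4 regions higher.

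Presence at a shared region was not matched by a stage-restricted promoter at most nearest genes. Of 2881 nearest genes named alone, 1166 (40.5%) had a promoter called in all 12 libraries, 163 (5.66%) in all 4 PS and RS libraries and no spermatogonial one, and 756 (26.2%) in no library. For RS-only regions the second share was 5.29% and for PS-only regions 3.68%, with no test of the difference. At 1679 genes with a promoter tested, the log2 change of the promoter and the mean change of its shared regions had a Spearman rho of 0.07 across genes, which share the 4 libraries. Where both were called, 43 of 89 moved the same way.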

How the data were processed

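H3K27ac ChIPmentation (immunoprecipitation with sequencing adapters inserted on beads by a transposase) was deposited as 1 peak table per library, with replicates called separately, for 12 H3K27ac and 16 input libraries. Bowtie and MACS2 and the build mm10 are named in the submitters' processing notes, with no version or role. Per the file headers each line gives, for a summit, the signal height (pileup), fold enrichment, −log10 p-value and −log10 q-value, with a nearest RefSeq transcript and a class. The deposited fold enrichment, a ratio, equals height plus 1 over a single background plus 1 in each library, so it holds no input control. Read depth is unknown.

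Peaks overlapping by at least 1 bp were merged, lines on the mitochondrial genome were left out, and each library was represented by its highest summit. RS KO and PS KO were compared with limma 3.58.1 (R 4.3.3) on log2 fold enrichment, and members were matched to the region of that fit. With 2 libraries a group an exact permutation test could not pass 0.05. In data simulated for RS KO minus PS KO over 21329 regions, limma recovered 200 of 200 regions changed 3-fold and called 12 of the 21129 unchanged. Whether these rates hold for the real libraries, where the spread differs between regions, was not tested. Other steps used scipy 1.17.1, pandas 2.3.3, numpy 2.4.6 and Python 3.11.15. Windows and miRNAs came from RefSeq tables of GRCm38.p6, the assembly that mm10 represents. All 1683 overlapping windows of opposite strand matched as gene-strand sequences. Motifs were not searched around summits, which needs a genome not used here.

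Named regions were the 10 of highest mean level, the 8 largest rises and falls past the threshold, the 3 strongest for each gene list, the 5 largest clusters and genes, and those just inside and outside the rule; 1 of these is not reported here. Members, lists and rules were chosen with earlier results of these data known. Alternatives were other overlaps, stricter peaks, equal peak numbers, other centring and leaving out each library.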

Additional observations from a re-analysis of the deposited data

How the results depend on the processing

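The number of shared regions was 4323. It fell to 1944 with peaks of −log10 q of at least 5 in all 12 libraries, to 1607 with that threshold in PS and RS only and to 787 with the 17877 strongest peaks of each library. Leaving out a library gave 4335 to 7657, the highest without PS KO replicate 2. Other overlaps, gaps, input handling and a 5000 bp limit gave 3410 to 4345. With the stricter peaks 31.0% were intronic, 44.6% intergenic and 24.4% upstream, and with equal peak numbers 25%, 49.9% and 25%. Joined within 50000 bp there were 671 clusters.

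Over all regions 4309 changed between the stages, 2648 higher and 1661 lower in RS KO. Leaving out a library gave 0 to 6667 changed, 0 to 3825 higher and 0 to 2842 lower. In the shared regions it gave 0 to 1643 higher, 0 to 918 lower and, on X, 0 to 45 lower. Without centring 3630 of all regions and 952 shared ones were lower, and with promoter centring 835 and 305. When regions called in any 2 libraries were tested 7022 of all regions changed, 3896 of them lower, and 352 shared regions were higher. Stricter peaks gave 1982 changed, 1518 higher and 464 lower, of which 498 and 181 were shared regions and 15 lower on X. The cause was not tested.

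All 1785 changed shared regions kept their direction under each alternative in which they were tested. This was largely fixed in advance, also for the named regions. The replicate block and input removal gave the same median change of 0.23 as the main fit. No centring and promoter centring shift all regions alike, and leaving out a library reuses the other values. Of the 1785, 1227 passed under each of 5: the replicate block, quantile normalization, no centring, promoter centring and input removal. The 26 named regions kept their direction, with 244 of 299 values on the same side of the threshold, 43 no longer past it and 12 newly past it. Of the 43, 36 came from leaving out an RS KO library. The labels do not say that a replicate number marks a shared animal or day. Deviations of same-numbered libraries had a correlation of 0.0412 with 2 libraries a group, and background height was higher in replicate 1 in each of the 6 H3K27ac groups. With the replicate block 1300 shared regions were higher and 576 lower. Low heights limit the weakest regions, whose summits had signal heights of 5 to 7. Motif windows at summits were not run.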
